A study of Rattus norvegicus with 8 samples.

Results

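Keratin-associated proteins (gene symbols beginning with Krtap) are small proteins of the hair shaft, and their messages were profiled here in skin of rats made diabetic with streptozotocin (STZ) and of sham-treated rats. Members were all array probes whose RefSeq accession belongs to a rat gene named Krtap, which gave 14 genes, with 1 probe each, of 13903 named genes on the array. The RefSeq table lists 69 Krtap genes, so the array measured 20.3% of them. In the growing hair, keratin filaments are laid down first, and keratin-associated proteins then fill the space between them and are joined to them by disulphide bonds. High-sulfur and ultrahigh-sulfur members are rich in cysteine, and high-glycine-tyrosine members are rich in glycine and tyrosine. Their genes lie in clusters and are switched on late in hair shaft cells, in the cortex or the cuticle, during the growth phase of the follicle (anagen).

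Full-thickness skin came from Sprague-Dawley rats, all male, at 8 weeks of age. At the age of 4 weeks the STZ group had been given 60 mg/kg of streptozotocin, a toxin of the pancreatic beta cells, into the peritoneum, and the sham group sodium citrate solution, with harvest 4 weeks after that. A cutaneous wound is mentioned for the study, and it is not stated whether the skin profiled here carried one, or how many rats gave each RNA. The labels list 4 samples a group, but replicates 1 and 3, and 2 and 4, of each group were 2 scans of 1 array, so 2 sham arrays were compared with 2 STZ arrays (n = 2 a group). Array A of a group is that of replicates 1 and 3, and array B that of replicates 2 and 4. Levels below are log2 intensity relative to the 75th percentile of the array, averaged over its 2 scans, and no level of a probe is set against that of another probe.

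The 2 scans of an array had the same position on the slide in the headers, their spot-by-spot deviations correlated at 0.988 or more, against 0.788 or less for all other pairs of samples, and the 14 Krtap probes differed between them by at most 0.14. The 75th percentile of intensity ran from 606 to 1496 over the samples, lowest on STZ array B, which also had the most probes well above background (22887 and 22755 of 24684 in its 2 scans, against 20262 to 21427 in the other samples). After this scaling the median tested probe was 0.23 higher in STZ, so changes are given relative to that median. Of the tissue's defining markers, the basal keratinocyte gene Krt14 and the fibroblast gene Col1a2 lay at 5.54 or higher on every array.

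All 14 Krtap genes were lower in STZ skin than in sham skin, by a median log2 change of −4.15, while the median of all 21526 tested probes was 0 by construction and 50% of them were lower. At least 8-fold lower were 9 of the 14, against 0.892% of tested probes. Both STZ arrays lay below both sham arrays for 12 of the 14, against 17.9% of tested probes. None passed limma's moderated test after Benjamini-Hochberg adjustment over all tested probes, where 0% of probes passed. The adjusted p of the 14 ran from 0.0957 to 0.776. At an unadjusted p under 0.05, 10 of the 14 were lower and 0 higher, against 3.52% of tested probes lower and 7.3% higher. The median change of the 14 was −4.22 with STZ array A left out and −4.04 with STZ array B left out. Each of these fits has 1 STZ array, so no count of genes passing is read as a result for it.

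**Figure D1:**
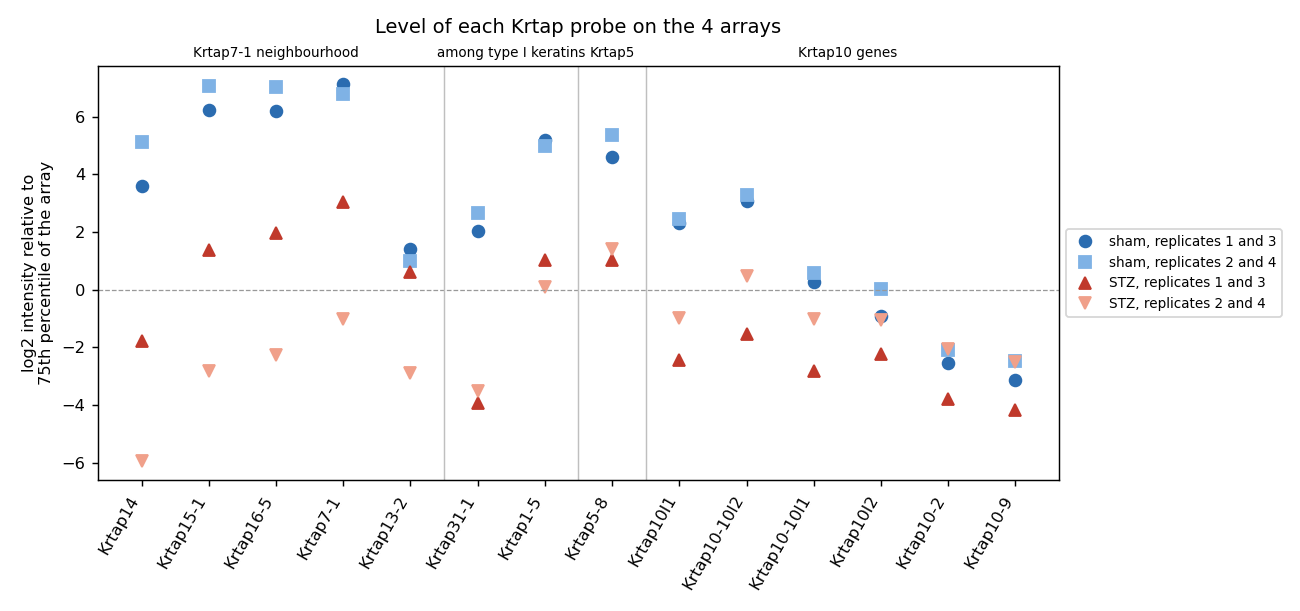
Level of each of the 14 Krtap probes (log2 intensity relative to the 75th percentile of the array) on the 2 sham arrays (blue) and the 2 STZ arrays (red), with genes grouped by their neighbours in the genome. The groups overlap for Krtap10-2 and Krtap10-9 alone, and the STZ arrays are far apart for the 5 genes at the left, from Krtap14 to Krtap13-2.

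The high-glycine-tyrosine class was represented by Krtap7-1, a protein of the hair cortex. Its level was 7.11 and 6.77 on the sham arrays and 3.04 and −1.03 on the STZ arrays. The groups did not overlap, and the STZ arrays stood further from each other than the sham arrays did. Its log2 change was −6.16 ± 1.35 (SE, n = 2 arrays a group, limma's unadjusted p = 0.00711, adjusted p = 0.226), from 6.94 ± 0.24 in sham to 1.01 ± 2.87 in STZ (SD). The change was −3.93 with STZ array B left out and −8.35 with STZ array A left out. The ultrahigh-sulfur class was represented by Krtap5-8, of a family whose proteins consist largely of cysteine, glycine and serine. It read 4.60 and 5.35 on the sham arrays and 1.03 and 1.40 on the STZ arrays. Here the 2 STZ arrays were close together and well below sham, with a log2 change of −3.99 ± 0.49 (SE, adjusted p = 0.12, limma).

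By the number of the family, 11 members were high-sulfur (families 1, 10, 13, 14, 15 and 16). Their median log2 change was −3.93, with a range of −8.46 to −0.78, and 7 of the 11 were lower at an unadjusted p under 0.05. Krtap16-5 was placed here by its number, but it lies next to Krtap19-5, of a family counted as high-glycine-tyrosine, and its protein sequence was not used here. With Krtap16-5 counted in the other class, the high-sulfur median was −3.25. Krtap31-1 belongs to a family with no class in the scheme used and is given by its name. With 1 member each in the high-glycine-tyrosine and ultrahigh-sulfur classes, the classes were not compared.

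The lowest values relative to sham were those of Krtap14, Krtap15-1 and Krtap16-5. Krtap14 lay at 3.59 and 5.13 in sham and at −1.79 and −5.96 in STZ. On STZ array B it was not well above background, so its log2 change of −8.46 ± 1.46 (SE, adjusted p = 0.171, limma) rests on 1 measured STZ array, and it was −6.18 without the dim array. Of the 14 genes it was the only one not above background in all 8 samples. Krtap15-1 lay at 6.21 and 7.07 in sham and at 1.38 and −2.82 in STZ, a log2 change of −7.59 ± 1.42 (SE, adjusted p = 0.182, limma). Krtap16-5 followed it closely, with 6.18 and 7.01 in sham, 1.97 and −2.26 in STZ and a change of −6.97 ± 1.42 (SE, adjusted p = 0.202, limma). For all 3 the lower STZ array was B. Without it the changes of Krtap15-1 and Krtap16-5 were −5.30 and −4.65, and without STZ array A −9.85 and −9.24.

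Krtap31-1 and Krtap1-5 lie among the type I hair keratin genes, in the cluster that runs from Krt40 to Krt33a in the RefSeq table. Krtap31-1 had the smallest p of all Krtap genes. It was at 2.04 and 2.65 in sham and at −3.93 and −3.53 in STZ, and its groups were the furthest apart of the 14, with the lower sham array 5.57 above the higher STZ array before rescaling to the median. Its log2 change was −6.30 ± 0.47 (SE, unadjusted p = 5.03e-05, adjusted p = 0.0957, limma). Krtap1-5, a high-sulfur protein of the cortex, was at 5.18 and 4.97 in sham and at 1.01 and 0.08 in STZ, a change of −4.76 ± 0.51 (SE, adjusted p = 0.102, limma). For both genes the STZ arrays were closer to each other than to either sham array.

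The 6 members of family 10, high-sulfur proteins whose genes lie together near Tspear, had log2 changes from −4.32 to −0.78, with a median of −1.98. Krtap10l1 was at 2.31 and 2.46 in sham and −2.45 and −0.97 in STZ, a log2 change of −4.32 ± 0.63 (SE, adjusted p = 0.144, limma). Krtap10-10l2 was at 3.08 and 3.28 in sham and −1.53 and 0.48 in STZ, a change of −3.93 ± 0.76 (SE, adjusted p = 0.201, limma). Krtap10-10l1 was at 0.27 and 0.56 in sham and −2.83 and −1.03 in STZ, without overlap. Its change was −2.57 ± 0.71, and limma's unadjusted p of 0.0213 became 0.0634 or 0.0888 when either sham array was left out. Krtap10l2 was at −0.93 and 0.01 in sham and −2.24 and −1.04 in STZ, groups that only just did not overlap. Its change was −1.40 ± 0.64 (adjusted p = 0.578, limma). Krtap10-2 (−2.56 and −2.09 in sham, −3.79 and −2.07 in STZ) and Krtap10-9 (−3.12 and −2.48 in sham, −4.18 and −2.51 in STZ) had overlapping groups, with changes of −0.83 ± 0.70 and −0.78 ± 0.70. Without STZ array A these were −0.13 and −0.10, and without STZ array B −1.49 and −1.41. The members of this family resemble each other in sequence, and which copies each probe binds was not tested.

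The 2 STZ arrays differed from each other as well, in opposite directions in different groups of Krtap genes. Krtap7-1, Krtap13-2, Krtap14, Krtap15-1 and Krtap16-5 lie in 1 neighbourhood, between Krtap24-1 and Krtap11-1. All 5 were lower on STZ array B than on STZ array A, with B minus A at −4.58 to −3.86 on the log2 scale relative to the median of tested probes (a difference of levels). Only 0.4% of the tested probes were at −3 or below. Of the 5 genes, Krtap14 (−4.51) was not well above background on STZ array B. Lower values on STZ array B were not particular to this neighbourhood. The median B minus A was −2.93 for hair shaft keratins and −3.5 for inner root sheath keratins. All 6 family 10 genes differed the other way, with B minus A at 0.86 to 1.68, while 34% of tested probes were at 0.5 or higher. On this scale Krtap31-1 (0.06) and Krtap5-8 (0.03) read nearly the same on both arrays, and Krtap1-5 was at −1.27. After quantile normalization Krtap31-1 was at −0.57 and Krtap5-8 at 0.43, and after normexp with it at −0.31 and 0.37. On the sham arrays the 5 clustered genes differed by −0.37 to 1.57 and the family 10 genes by 0.18 to 0.97.

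**Figure D2:**
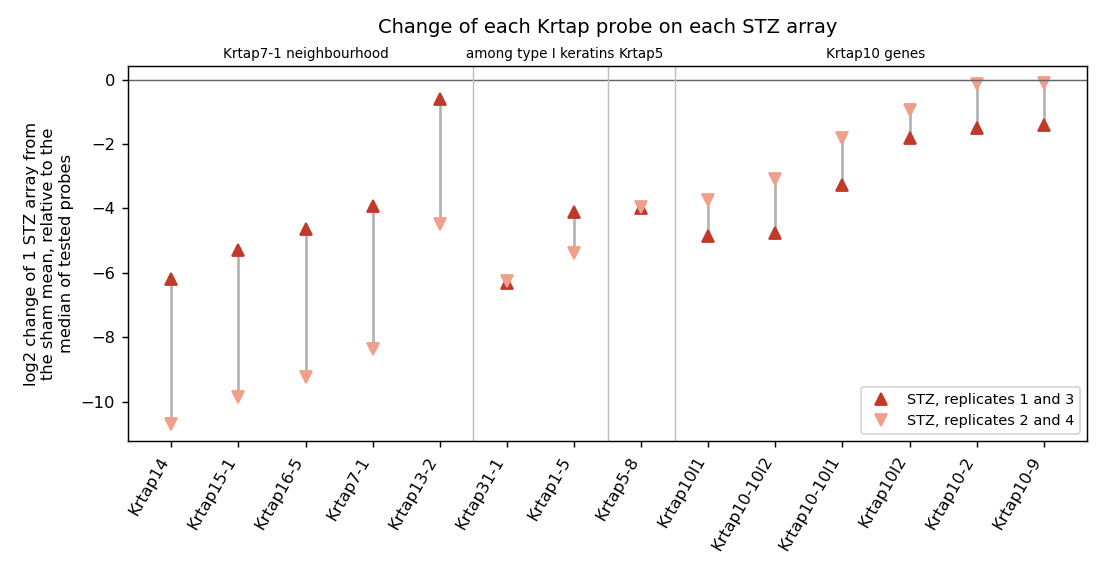
Log2 change of each Krtap probe from the sham mean on each of the 2 STZ arrays, relative to the median of tested probes; a grey line joins the arrays. For the 5 genes of the Krtap7-1 neighbourhood STZ array B (replicates 2 and 4) minus STZ array A (replicates 1 and 3) is −4.58 to −3.86, and for the 6 Krtap10 genes it is 0.86 to 1.68.

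Seen as a change from sham, the 5 clustered genes had a median of −4.65 on STZ array A and −9.24 on STZ array B, and the family 10 genes −2.54 and −1.39. Of these 5 genes, Krtap13-2 changed least from sham. It was at 1.40 and 1.0 in sham and at 0.61 and −2.90 in STZ, so that its change from sham, relative to the median probe, was −0.61 on STZ array A and −4.48 on STZ array B. Its change over all arrays was −2.57 ± 1.19 (SE, adjusted p = 0.563, limma). After quantile normalization the clustered genes differed between the STZ arrays by −6.17 to −4.12 and the family 10 genes by 0.99 to 2.03. After normexp with quantile normalization the ranges were −4.20 to −2.41 and 0.60 to 1.80. The −6.17 and the −2.41 were those of Krtap14, which was not well above background on STZ array B. The difference between the arrays moved with signal level over all tested probes. Its median was 1.03 for probes at −4 or lower in STZ, 0.33 between −4 and −2 (interquartile range −0.58 to 1.16), and −0.31 between −2 and 0 (−0.95 to 0.34). Krtap10-2 and Krtap10-9 fell in the second of these ranges of level and the other 4 family 10 genes in the third. The part of signal level in the family 10 difference was not tested. With 1 array on each side, this difference has no replicate check.

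The bases before the gene starts are shown because the difference between the STZ arrays was alike within the Krtap7-1 neighbourhood and within family 10. Changes from sham were not alike there, at −8.46 to −2.57 and −4.32 to −0.78. For the members among the type I keratins B minus A was not alike either, at −1.27 and 0.06. All 14 members matched the RefSeq promoter table (build GRCr8), and the 250 bases before the annotated start were searched on both strands for TATAAA and its variant TATATAA (the TATA box), for CTTTGA or CTTTGT (the core that LEF1 and TCF factors of the Wnt pathway bind), and for GGATAAAA, which was noticed in family 10. TATAAA and TATATAA can overlap. These motifs were chosen after the sequences and values were seen. Capitals mark the matches.

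Krtap7-1, chr11:42227231-42227480, minus strand: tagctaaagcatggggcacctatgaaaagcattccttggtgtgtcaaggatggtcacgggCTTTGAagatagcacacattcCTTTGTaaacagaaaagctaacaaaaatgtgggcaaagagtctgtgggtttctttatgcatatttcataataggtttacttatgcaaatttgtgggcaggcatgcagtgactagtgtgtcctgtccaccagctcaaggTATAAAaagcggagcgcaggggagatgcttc
Krtap15-1, chr11:41616311-41616560, plus strand: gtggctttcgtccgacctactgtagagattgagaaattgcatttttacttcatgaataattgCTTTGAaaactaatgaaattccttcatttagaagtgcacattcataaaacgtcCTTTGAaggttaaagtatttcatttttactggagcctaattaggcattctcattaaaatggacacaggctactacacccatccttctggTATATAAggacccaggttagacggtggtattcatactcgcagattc
Krtap16-5, chr11:41736015-41736264, minus strand: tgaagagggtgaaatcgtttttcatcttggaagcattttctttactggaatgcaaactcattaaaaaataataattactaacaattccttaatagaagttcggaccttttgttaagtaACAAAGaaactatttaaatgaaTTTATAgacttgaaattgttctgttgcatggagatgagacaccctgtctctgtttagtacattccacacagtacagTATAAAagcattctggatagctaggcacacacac
Krtap31-1, chr10:85363207-85363456, plus strand: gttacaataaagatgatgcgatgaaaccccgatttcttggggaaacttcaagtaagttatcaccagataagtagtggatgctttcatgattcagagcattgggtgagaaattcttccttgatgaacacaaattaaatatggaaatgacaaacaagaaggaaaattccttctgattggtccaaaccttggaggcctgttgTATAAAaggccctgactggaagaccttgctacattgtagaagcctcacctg
Krtap10l1, chr20:10807866-10808115, minus strand: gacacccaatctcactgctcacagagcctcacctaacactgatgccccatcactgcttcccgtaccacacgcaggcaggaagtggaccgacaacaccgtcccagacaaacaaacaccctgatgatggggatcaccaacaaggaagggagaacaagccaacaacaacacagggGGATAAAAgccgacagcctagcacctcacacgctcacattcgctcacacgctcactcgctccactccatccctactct
Krtap10-10l2, chr20:10844475-10844724, plus strand: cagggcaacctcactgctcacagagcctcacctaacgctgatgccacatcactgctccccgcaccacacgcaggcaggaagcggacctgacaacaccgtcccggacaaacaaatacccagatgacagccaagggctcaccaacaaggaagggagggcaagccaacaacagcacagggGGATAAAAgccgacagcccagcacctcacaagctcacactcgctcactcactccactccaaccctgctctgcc

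A TATAAA or TATATAA match was present in 5 of the 5 members of the Krtap7-1 neighbourhood, in both members among the type I keratins, in Krtap5-8 and in 3 of the 6 family 10 members, against 14.5% of all 33469 promoters in the table. The match nearest the start began at −46 to −25 in the 5 clustered genes (counted from the start), at −27 in Krtap1-5, at −51 in Krtap31-1 and at −32 in the family 10 gene Krtap10-10l1. In Krtap5-8, Krtap10-2 and Krtap10-9 it began at −98 to −94. GGATAAAA was found in 4 of 6 family 10 members, in none of the other 8, and in 0.941% of all promoters. Over the 14 members, 11 held TATAAA or TATATAA, as did 85.2% of the 61 Krtap promoters in the table. CTTTGA or CTTTGT was found in 5 of 5 clustered members, in Krtap1-5 and in 0 of 6 family 10 members, against 27.5% of all promoters. Over all Krtap genes of the table it was in 7 of 17 of the Krtap7-1 neighbourhood and 2 of 14 of the family 10 cluster, so its presence in all 5 members on the array is not shared by the whole neighbourhood. A match describes letters only, and binding was not measured.

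**Figure D3:**
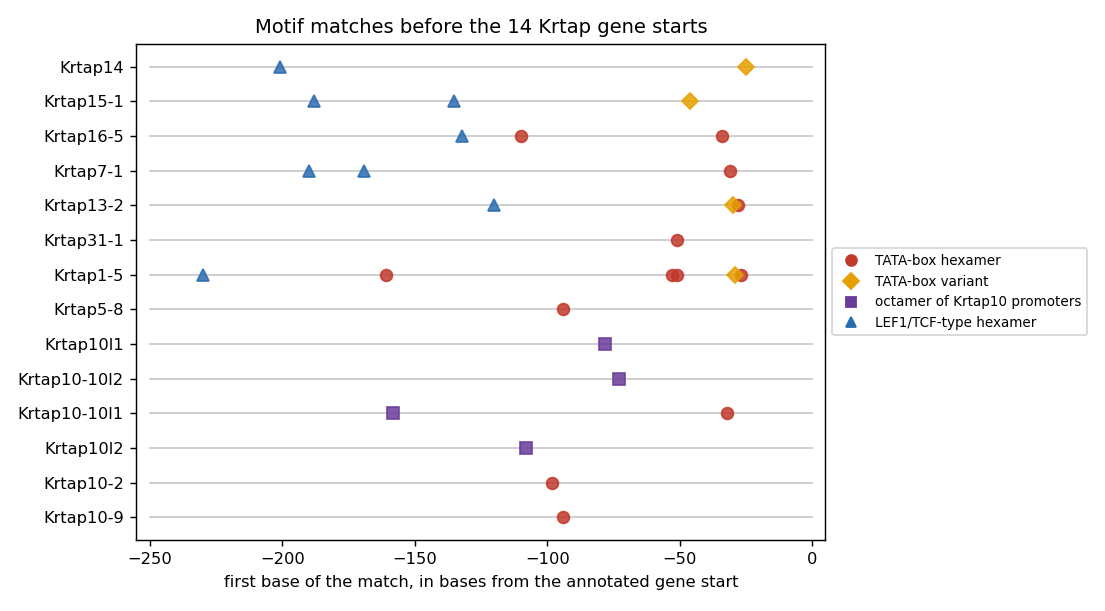
Position of motif matches in the 250 bases before the start of each of the 14 Krtap genes, by the distance of the first base of the match from the annotated start. Matches of the LEF1/TCF-type hexamer (blue triangles) lie in the 5 genes of the Krtap7-1 neighbourhood and in Krtap1-5, and the octamer (purple squares) in 4 family 10 genes.

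The filament and sheath genes of the hair were lower as well, by medians below that of the Krtap genes. Of 13 hair shaft keratins, to which keratin-associated proteins are bound, 12 were lower at an unadjusted p under 0.05, against 3.52% of tested probes. The other, Krt84, was dim, with a mean level of −6.57 in sham and −5.86 in STZ. It was at 0.48 ± 0.74 (−0.35 and −0.04 under the 2 other normalizations). The median log2 change of the 13 was −6.17. The 3 with the smallest p were Krt40 (−7.37 ± 0.47), Krt39 (−4.26 ± 0.44) and Krt82 (−6.07 ± 0.67). Of these, Krt40 and Krt82 were well above background in only 2 STZ samples each, and they were at −4.32 and −3.81 after normexp with quantile normalization. Over the 13 shaft keratins the median difference between the STZ arrays (B minus A) was −2.93, with 12 of 13 lower on STZ array B, as in the Krtap7-1 neighbourhood. All 6 inner root sheath keratins, of the layer that moulds the shaft, were lower at an unadjusted p under 0.05, with a median of −7.79. Krt28 (−8.87 ± 0.82), Krt72 (−9.09 ± 0.98) and Krt26 (−8.54 ± 1.03) led by p. On STZ array B all 6 were lower than on STZ array A, with a median B minus A of −3.5. None of these genes passed after adjustment (limma, smallest adjusted p = 0.0872, for Krt40). The median of the sheath keratins was −7.56 without sham array A and −7.99 without sham array B.

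Of the partners that crosslink or fill the shaft, 6 were measured. S100a3 (−5.76 ± 0.57), a calcium-binding protein of the cuticle, and the peptidylarginine deiminase genes Padi1 (−5.50 ± 0.73) and Padi3 (−6.39 ± 1.05) were lower at an unadjusted p under 0.05. Tgm3, a transglutaminase of the follicle and the epidermis, was at 0.39 ± 0.45, and the list's median was −3.52. All 6 partners were lower on STZ array B than on STZ array A, with a median B minus A of −1.6. Over all tested probes, 50% had a change below 0 and 3.52% were lower at an unadjusted p under 0.05. Of a list of hair matrix regulators, which also holds cell adhesion genes such as Dsc2, 22 were on the array and 21 were tested. All 21 had a change below 0, and 14 of them were lower at an unadjusted p under 0.05 (13 to 16 over the alternatives with 2 arrays a group). The other, Shh, was well above background in 2 sham samples and 0 STZ samples, so no direction is given for it, and the median of all 22 was −2.21. Msx2 (−3.49 ± 0.45), Dlx3 (−2.87 ± 0.42) and Dsc2 (−3.98 ± 0.63) had the smallest p. Foxn1, a transcription factor needed for hair keratin expression, was at −3.58 ± 0.59 (−1.83 after normexp with quantile normalization) and reached the background flag in 2 STZ samples. Lef1, which acts with beta-catenin in Wnt signalling, was at −2.89 ± 0.57, and Foxq1, a factor of the hair medulla, at −0.59 ± 0.60. Hoxc13, a regulator of hair keratin genes, was not among the named probes. Between the STZ arrays the regulators had a median difference (B minus A) of −1.21, where the median tested probe was at 0 by construction. Lower on STZ array B were 18 of 22, and Msx2 was at 0.25, Dlx3 at −0.17 and Lef1 at −1.60.

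**Figure D4:**
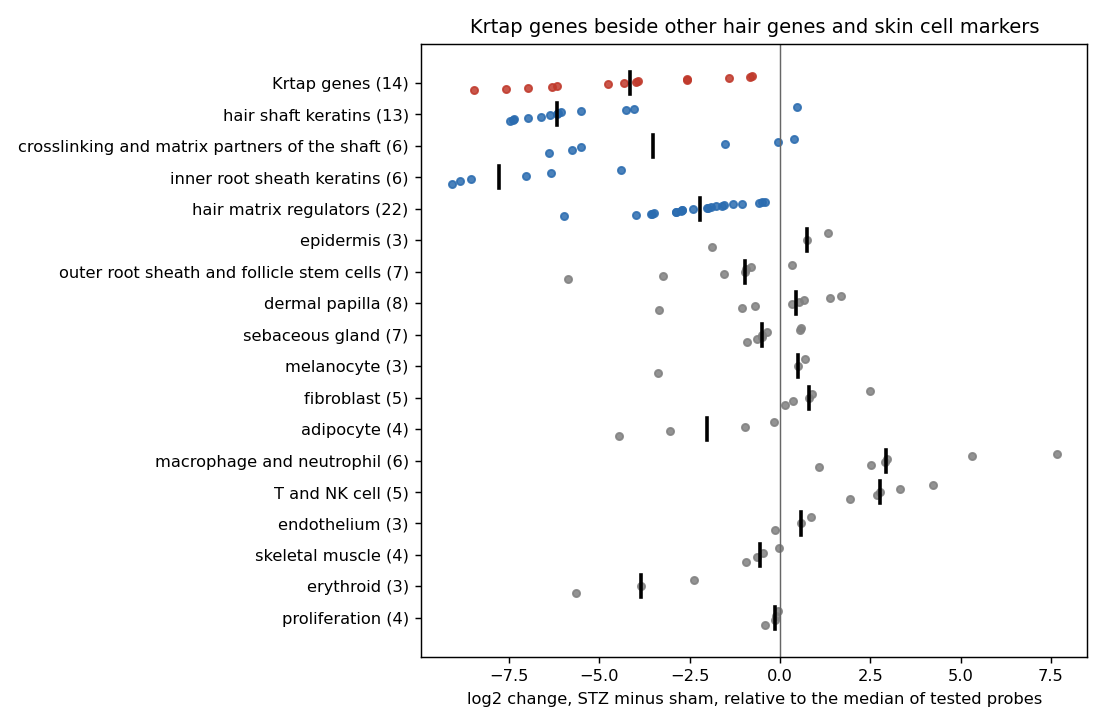
Log2 change, STZ minus sham, of the 14 Krtap genes (red), of other hair genes (blue) and of markers of other skin cells (grey); each point is 1 gene, the black bar is the median of the list, and the number of genes is in brackets. The medians of the hair lists lie left of 0, those of the macrophage, neutrophil, T and NK cell markers right of it, and that of the proliferation genes near 0.

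Markers of other cells also differed between the groups, and their part in the Krtap values was not tested. The macrophage and neutrophil markers (6 of 6 higher, mean level 0.14 to 0.92 in sham and 4.37 to 4.63 in STZ) and the T and NK cell markers (5 of 5 higher, −2.96 to −2.54 in sham and −0.06 to 0.99 in STZ) were higher in STZ, with medians of 2.94 and 2.76. Epidermal markers had a median of 0.74, with 2 of 3 higher (Krt1 at 1.33 ± 0.72 and Krt14 at 0.74 ± 0.65). The third, Ivl, was lower, at −1.89 ± 0.42 (limma's unadjusted p = 0.0109, adjusted p = 0.265). Fibroblast markers had a median of 0.79, with 5 of 5 higher (Col1a2, at 0.15, was at −0.06 and −0.05 under the 2 other normalizations). Adipocyte and erythroid markers were lower, with medians of −2.01 and −3.84. Among outer root sheath and follicle stem cell genes the median was −0.98 and 6 of 7 were lower, including Lhx2 (−3.24 ± 0.91) and Krt15 (−0.81 ± 0.51). Krt75 was at −5.88 ± 1.43, or −4.12 after normexp with quantile normalization, and was well above background in only 2 STZ samples. The gene that was not lower, Lgr5, was at 0.32, and at −0.46 and −0.08 under the 2 other normalizations. It was well above background in only 2 sham samples, so no direction is given for it. Dermal papilla markers had a median of 0.43 (3 of 8 lower), which was −0.15 on STZ array A and 0.64 on STZ array B. Of the 8, 1 was lower at an unadjusted p under 0.05 and 0 higher. It was Corin, at −3.35 ± 0.65 (−1.54 after normexp with quantile normalization). Rspo2, at 0.33, was at −0.11 and −0.07 under the 2 other normalizations. The median of 3 melanocyte markers was 0.50 over all arrays but −0.14 and −0.13 on STZ arrays A and B taken alone. The median was −0.51 for sebaceous gland markers, 0.58 for endothelial markers, −0.55 for skeletal muscle markers and −0.13 for proliferation genes (2 of the 4, Pcna and Cdk1, changed sign under the 2 other normalizations). In bulk skin, fewer hair shaft cells and less RNA per cell cannot be told apart.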

How the data were processed

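Skin RNA was amplified, labelled with Cy3 and read on Agilent arrays of 1 colour, according to the labels. The deposited intensity (processed signal) carried background subtraction and no scaling of arrays to each other, per the file headers (Agilent Feature Extraction, version 11.0.1.1); the submitters' processing notes name 11.0.0.1. The deposited median spot and background intensities, used for 1 alternative, are uncorrected. The other deposited values are flags set by the scanner software.

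From log2 of the processed signal each sample's 75th percentile over its 42136 noncontrol spots was subtracted, and spots of a probe were averaged without outlier-flagged spots. The test took the 21526 of 24684 probes that the scanner called well above background in 4 or more samples. All 14 Krtap probes passed, 13 of them well above background in all 8. No spot was saturated. The 2 scans of an array were averaged. STZ was compared with sham by limma 3.58.1 in R 4.3.3 (lmFit and eBayes, two-sided, Benjamini-Hochberg adjusted over all tested probes, prior degrees of freedom 3.01, residual 2). The p tests the change on the 75th percentile scale, and the printed change is relative to the median of tested probes. P-values measure only the spread between these arrays, whose number limits the precision, and an exact permutation test of 2 against 2 cannot go below 0.333. The fit was also run on simulated data with equal spread in both groups. That simulation does not cover the wider spread of the STZ arrays seen here for several Krtap genes.

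Probes were named by accession through the RefSeq table of GRCr8, which held 14274 of 15321 coding accessions. The headers name the older build rn4, so only promoter windows, from RefSeq, carry coordinates. Members and lists were chosen with earlier results of these data known. Every Krtap gene is accounted for. By rule, those given in full were, in each class, the 5 with the smallest p and the 2 nearest 0; Krtap16-5, Krtap10-10l1, Krtap13-2 and Krtap10l2 were given in full after their values were seen. Other named genes were, in each hair list up to 3 with the smallest p, plus Hoxc13, Foxn1, Msx2, Lef1, Dlx3 and Foxq1, and the 5 genes whose profile was most like the mean Krtap profile. Krt84, Tgm3, Shh, Krt75, Lhx2, Krt15, Lgr5, Corin, Rspo2, Pcna, Cdk1, Krt1, Ivl, Krt14 and Col1a2 were named after their values were seen. For lists, 1 probe a gene, the brightest, was used.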

Additional observations from a re-analysis of the deposited data

How the results depend on the processing

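All 14 Krtap genes stayed lower in STZ under every alternative run. Over the alternatives with 2 arrays a group, the count at an unadjusted p under 0.05 ran from 9 to 11, against 10. No Krtap gene passed after adjustment except when the 8 scans were treated as separate arrays (10 genes) and without STZ array A, that of replicates 1 and 3; over the arrays left out in turn the count ran from 0 to 3. The share of all tested probes that passed in these fits is not given. Scans of 1 array are not independent, and leaving out an array leaves 1 in its group. These counts after adjustment are therefore not read as a result about Krtap genes. The median of all Krtap genes was −3.87 after quantile normalization, −3.70 after normexp with it, and −4.35 to −4.04 with 1 array left out. The high-sulfur median was −3.59 and −3.37 under these normalizations, −3.25 without Krtap16-5, and −4.10 to −3.73 with 1 array left out; Krtap31-1 was at −5.29 after normexp, and Krtap7-1 ran from −8.35 to −3.93 with 1 array left out. The median of hair matrix regulators was −2.38 after quantile normalization, −1.71 after normexp with it, and −2.94 to −1.63 with 1 array left out, with counts from 9 to 17. With 1 array left out the medians ran from −7.74 to −4.38 for hair shaft keratins, −9.87 to −6.02 for inner root sheath keratins and −4.32 to −2.64 for partners of the shaft. The cause was not tested. Replicate numbers gave no sign of pairing the arrays. Differences between the arrays of sham and of STZ correlated at −0.201 over tested probes, and 1 difference a group cannot exclude pairing. With the number as a replicate block 11 Krtap genes were lower at an unadjusted p under 0.05, and with the numbers crossed 10. All arrays lay on 1 slide and each Krtap gene had 1 probe, so a slide block and the mean over probes could not be run for them.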

Other observations

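The sham arrays were not alike for every Krtap gene. Of the 14, 11 were higher on the array of sham replicates 2 and 4 than on that of replicates 1 and 3 and 3 were lower, relative to the median tested probe. The widest sham difference was that of Krtap14, at 1.57, followed by Krtap10l2 at 0.97 and Krtap15-1 at 0.89, while Krtap7-1, Krtap13-2 and Krtap1-5 were lower there by −0.31, −0.37 and −0.17.

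The mean Krtap level over the 8 samples was compared with every tested probe of a named gene other than Krtap and keratin genes. The 5 with the highest Pearson correlation, 0.9992 or more, were Zbtb3, Dtd2, Hbb-bs, Rngtt and Mlf1, with log2 changes of −1.46, −2.33, −4.58, −0.95 and −4.15. The 8 samples are 2 scans of 4 arrays, and 161 of 12919 probes reached 0.99, so the order within them says little. The 250 bases before the start held 33.2% to 44% G and C in the Krtap7-1 neighbourhood and 49.2% to 59.2% in family 10.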
